A study of Mus musculus with 8 samples.

Results

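In cultured muscle stem cells (MuSCs), 320 binding sites of NF-YA were centred just inside a protein-coding gene, on or up to 200 bases downstream of its annotated start. They were taken from a common set of 7196 NF-YA peaks, of which 3837 had been assigned to protein-coding genes. A peak was included if its assigned gene was protein-coding, its distance to the gene start was at most 200 bases, and its centre lay on or downstream of the start in the direction of transcription. The 320 peaks belonged to 320 different genes, 158 on the plus and 162 on the minus strand. The same limits on the other side of the start held 1567 peaks, called upstream peaks here, which serve as the main reference.

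NF-YA occupancy was measured by CUT&RUN, in which a nuclease tethered to an antibody releases the DNA around the bound protein for sequencing, in activated and proliferating MuSCs of C57BL/6 mice. There were 2 libraries of control cells, which the sample titles call wild type (WT), and 2 libraries of Taf4asKO cells. In Taf4asKO mice (Pax7CRE ERT/Taf4a flox/flox) exons of the gene for the TFIID subunit TAF4A are deleted by a tamoxifen-induced Cre that is expressed under control of Pax7, the transcription factor that marks MuSCs, and the mice were adult at that time. Per the study's methods, control mice were littermates on the same background that also carried the floxed Taf4a alleles, either without or with the Cre allele, and tamoxifen is named for Taf4asKO. Which of these control genotypes gave the libraries, whether those mice had received tamoxifen, and whether the 2 libraries of a genotype came from separate mice or cultures, is not given by the labels. Hence p-values measure only the spread between these libraries. IgG libraries of both genotypes were not analysed here, and the values of the targeted gene cannot be checked with binding data.

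NF-Y is a trimer of NF-YA, NF-YB and NF-YC. NF-YB and NF-YC form a dimer that resembles histones H2A and H2B, and NF-YA inserts into the minor groove at the pentamer CCAAT, which can be read on either strand and is called the CCAAT box here. In promoters such boxes are best known from the region shortly upstream of the transcription start, where NF-Y is associated with open chromatin and with genes for cell division, histones, chaperones and lipid synthesis. The 5′ untranslated region (UTR), the part of the transcript before the coding sequence, starts at the gene start, and the midpoint of 281 of the 320 peaks fell in an annotated UTR. Of the rest, 23 midpoints fell in an intron, 5 in a coding exon and 11 in another exon.

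The boxes themselves show how differently these sites can lie within the start region. The following 30-base stretches, read from GRCm38 on the strand of the gene from 5′ to 3′, show the box nearest to the peak centre in capitals (ATTGG where the box is read on the other strand). The 8 peaks were picked in order of their control signal among the strongest peaks and the gene groups described below, to give the reader the sequence behind the highest values.
Cic, chr7:25267987-25268016: tcgagcttgtttATTGGagggcatatcctt
Fbxo24, chr5:137628878-137628907: ctggagatggagCCAATgagacccgcccag
Gsk3b, chr16:38089012-38089041: ggagttgtccagCCAATgaggaaacgggcg
Cdca2, chr14:67715787-67715816: aagtcccatagaCCAATcagctcctcgcta
Ensa, chr3:95625225-95625254: ccgctgccgctgATTGGccgcctctgcctc
Kdm4a, chr4:118180057-118180086: tagtgagtgttcATTGGttagctgaggacc
P4hb, chr11:120573115-120573144: acgctgggggacATTGGgtttgtgcgcgcg
Mvk, chr5:114444243-114444272: tccagctctctgATTGGcctcaggaagaca
The middle base of the box lay 297 bases downstream of the start in Cic, 246 in Ensa, 123 in P4hb, 109 in Fbxo24, 39 in Cdca2 and 25 in Gsk3b. In Kdm4a it lay 29 bases upstream of the start and in Mvk 12 bases upstream, although both peaks were centred downstream.

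Peak centres became rarer with distance from the start (see the histogram of peak centres). Within 25 bases of the start there were 98 centres, from 25 to 50 bases 69, and from 150 to 200 bases 33. The median centre lay 47.2 bases downstream. Most of the peaks were broad enough to reach across the start: 258 of 320 did so (80.6%, 95% Wilson interval 75.9 to 84.6), and 73.5% (71.2 to 75.6) of the upstream peaks. The peaks had a median width of 244 bases and ranged from 75 bases for Derl2 and Fbf1 to 1165 for Cic, while the median of upstream peaks was 229.

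**Figure D1:**
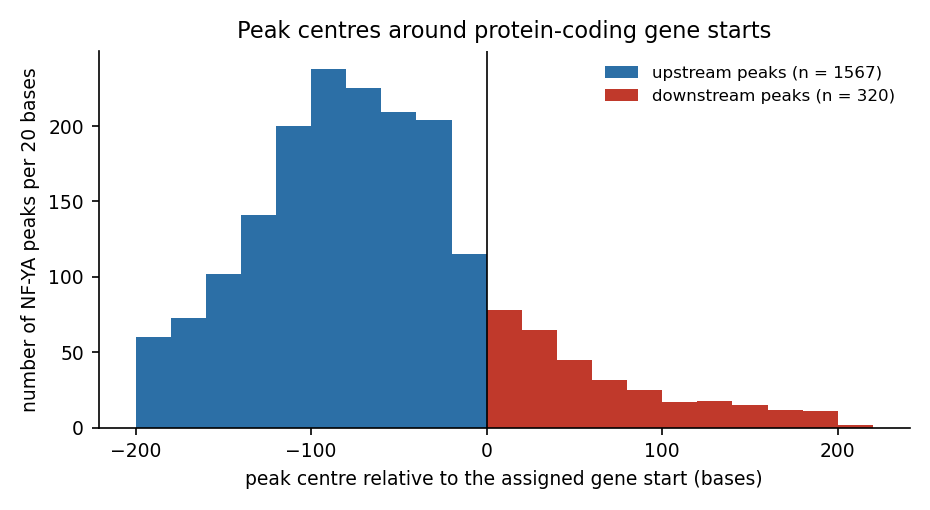
Number of NF-YA peaks in 20-base bins by the position of the peak centre relative to the assigned protein-coding gene start, with the start at 0 and transcription to the right. The 1567 upstream peaks (blue) were densest between 100 and 20 bases before the start, and the 320 downstream peaks (red) declined from the start to 200 bases.

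Values just inside and just outside the limits of the rule were as follows. Just inside 200 bases lay peaks of Fanca (centre at 199.5 bases, normalised reads of 13 and 13 in the control and 8 and 6 in the Taf4asKO libraries) and Dhdds (198.5 bases, 7 and 7 against 13 and 13), and just outside lay Psph (202 bases, 107 and 121 against 87 and 100) and Tmem94 (202 bases, 10 and 7 against 5 and 5). At the other limit, the peaks of Smyd4 and Avpi1 were centred on the start base, and those of Thap1 and Txlng, which were not included, 0.5 bases before it. The peak of Xbp1 at 198 bases had 52 and 39 against 49 and 44.

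Signal at the downstream peaks was close to that of upstream peaks. The deposited values are reads per peak after normalisation between libraries, called normalised reads here. The median over the 320 peaks was 61 and 57 in control libraries 1 and 2 and 55.5 and 66.5 in Taf4asKO libraries 1 and 2. In the same order the medians of upstream peaks were 65, 59, 57 and 65, and those of all 7196 peaks were 17, 16, 18 and 18. The downstream peaks were thus well above the typical peak in each library and lay on both sides of the upstream peaks. On the log2(value + 1) scale the medians of downstream and upstream peaks differed by -0.04 ± 0.05 (SD, n = 4 libraries), with an exact two-sided sign-flip permutation p of 0.25, where the smallest possible p is 0.125. The sign turned to 0.05 when only peaks with a mean of at least 10 were used. Per 100 bases of peak width the difference was -0.18, lower in 4 of 4 libraries.

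The downstream peaks made up 4.45% of all peaks and held 9.06% and 8.77% of all normalised reads in the control libraries and 8.56% and 8.92% in the Taf4asKO libraries. Between the peaks the range was wide, from a mean of 1.5 normalised reads to 1198 at Cic. The median signal did not fall steadily with distance from the start. It was 51.8 for centres within 25 bases of the start, 66.9 from 50 to 100 bases, 90.2 from 100 to 150 bases and 62.8 beyond, with median widths of 210, 281, 328 and 247 bases.

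**Figure D2:**
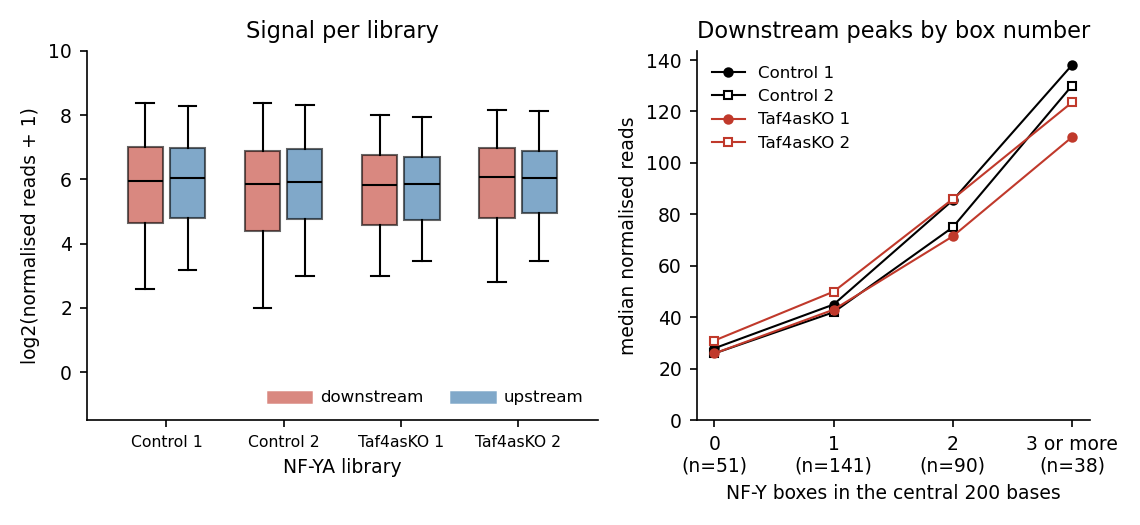
Left, log2(normalised reads + 1) of the downstream (red, n = 320) and upstream (blue, n = 1567) peaks in each NF-YA library, with boxes from the lower to the upper quartile, the median as a line and whiskers from the 5th to the 95th percentile. Right, median normalised reads of the downstream peaks in each library by the number of CCAAT boxes in the central 200 bases, from 26 to 31 without a box up to 110 to 138 with 3 or more boxes.

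The CCAAT box was present in most of the downstream peaks. It was searched as the letters CCAAT on both strands in the 200 bases around the peak centre, and it was found in 269 of 320 peaks (84.1%, 79.7 to 87.7). This was fewer than the 95% (93.8 to 96.0) of upstream peaks, with intervals that did not overlap, and more than the 74.7% (71.3 to 77.8) of the 699 peaks centred further than 200 and up to 1000 bases from a coding start. In windows of the same length 1000 bases to either side of the downstream peaks 24.8% (21.7 to 28.3) held a box, and in such windows at all 21755 protein-coding starts, centred 47 bases downstream, 22.3% (21.8 to 22.9) did.

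Other promoter motifs were searched in the same windows on both strands, and none of their letters contain CCAAT. The GC box GGGCGG, which SP and KLF proteins bind, was present in 53.1% (47.7 to 58.5) of the downstream peaks, in 61.7% (59.3 to 64.1) of upstream peaks and in 37.1% of the windows at all coding starts. The E-box CACGTG, bound by MYC, USF and TFE proteins, was present in 7.81% (5.35 to 11.3), in 7.85% of upstream peaks and in 4.94% of windows at all starts. The shares of the ETS motif CCGGAAG (9.69%), the YY1 motif AAGATGGC (3.12%) and the cAMP response element TGACGTCA (2.50%) had intervals that included the share of all starts, which was 8.87%, 2.88% and 1.54%. The letters TATAAA were found in 2.81% (1.49 to 5.26) of the downstream peaks, in 3.38% of upstream peaks and in 7.69% of the windows at all starts.

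Bases next to the box also differed from those at boxes outside the peaks. Read on the strand that spells CCAAT, 62.8% (56.9 to 68.4) of the 269 boxes nearest to the centres had A or G in both preceding positions, and 80.7% (75.5 to 84.9) were followed by C or G. The corresponding shares were 67.1% and 81.1% at the upstream peaks, but 22.3% (17 to 28.8) and 46.3% (39.3 to 53.4) at the 188 boxes in the flanking windows. The letters CA followed the box directly in 32.3% (27 to 38.1) of downstream peaks and in 7.98% (4.89 to 12.7) of flanking boxes. Read in this way, the boxes shown above are CCAATca in Cdca2, Ensa and Mvk, and CCAATga in Fbxo24, Gsk3b and Kdm4a. Cic has CCAATaa, and only P4hb (CCAATgt) lacks an A as the second base after the box.

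Peaks with more boxes held more reads. Without a box in the central 200 bases (51 peaks) the median was 28 and 26 normalised reads in the control and 26 and 31 in the Taf4asKO libraries. With 1 box (141 peaks) it was 45 and 42 against 43 and 50, with 2 boxes (90 peaks) 85.5 and 75 against 71.5 and 86, and with 3 or more (38 peaks) 138 and 130 against 110 and 123.5. The order was the same in each of the 4 libraries. Median width rose with it, from 169 bases through 209 and 278 to 305, and its part in this order was not tested.

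The 51 peaks without a central box fell into different kinds. In 21 of them a box was present elsewhere in the peak, and these were the 21 with a mean of at least 50 normalised reads, with a median width of 488 bases. Among them were Cic, Ensa, Ppp2r1a and Hspa8. In the other 30 no box was found anywhere in the peak. These had a median width of 116 bases, and 14 of them were below the mean of 10 normalised reads that was required for testing. The strongest of the 30 was the peak of Gzf1, a zinc finger protein gene, with a mean of 46.0. Every downstream peak above that value therefore held a box in its central 200 bases or elsewhere in the peak. A wide peak has more sequence in which the letters can occur, and the part of width was not tested here.

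Distances between neighbouring boxes are short by construction within 200 bases, and are given as a description beside those of upstream peaks. A pair of boxes or more was found in the central 200 bases of 128 downstream peaks (40.0%, 34.8 to 45.5) and of 57.5% (55.0 to 59.9) of upstream peaks. The 174 distances between neighbouring boxes had a median of 40.5 bases, with 38 of them (21.8%) at 30 to 39 bases, which was the fullest 10-base bin. At upstream peaks the median of 1309 distances was 41 bases and the same bin held 23.7%. Of the distances in the downstream peaks 48.3% lay between 20 and 49 bases, as did 55.8% in the upstream peaks.

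**Figure D3:**
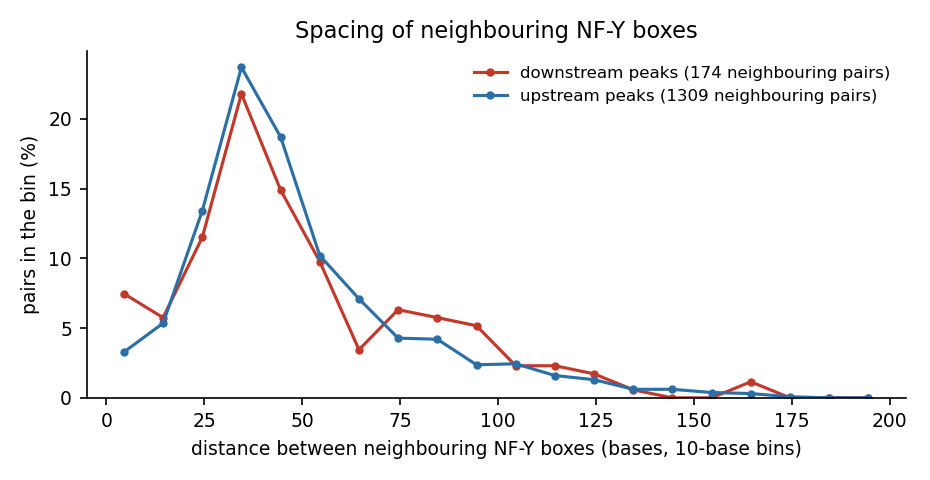
Share of neighbouring CCAAT box pairs, in percent, by the distance between the middle bases of the boxes in 10-base bins, for the central 200 bases of downstream (red) and upstream (blue) peaks. Both curves are highest at 30 to 39 bases, with 21.8% and 23.7% of the pairs.

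The position of the box relative to the gene start follows in large part from where the peak is centred, and is given as a description. The box nearest to the centre lay at a median of 47 bases downstream of the start, with quartiles of 0 and 97 bases, and at a median of -73 bases in upstream peaks. It was upstream of the start in 66 of 269 downstream peaks (24.5%, 19.8 to 30). Boxes were read on the strand of the gene in 131 of the 269 peaks (48.7%, 42.8 to 54.6), so that neither orientation prevailed beyond the interval.

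Whole peaks often reached boxes on both sides. Of the 282 downstream peaks that held a box anywhere, 130 (46.1%, 40.4 to 51.9) had at least 1 box upstream of the start, and 80 (28.4%, 23.4 to 33.9) had boxes on both sides of it. Boxes on both sides were present in 10.4% (8.99 to 12.1) of the upstream peaks with a box. In the 100 bases before the start, where boxes were found at 80.1% (78.0 to 82.0) of the starts with an upstream peak, 44.7% (39.3 to 50.2) of the starts with a downstream peak and 21.5% of all coding starts had 1. In the first 100 bases from the start the shares were 50.3% (44.9 to 55.8) for downstream peaks, 13.8% for upstream peaks and 9.70% for all starts, and in the next 100 bases 31.6%, 5.49% and 9.03%.

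**Figure D4:**
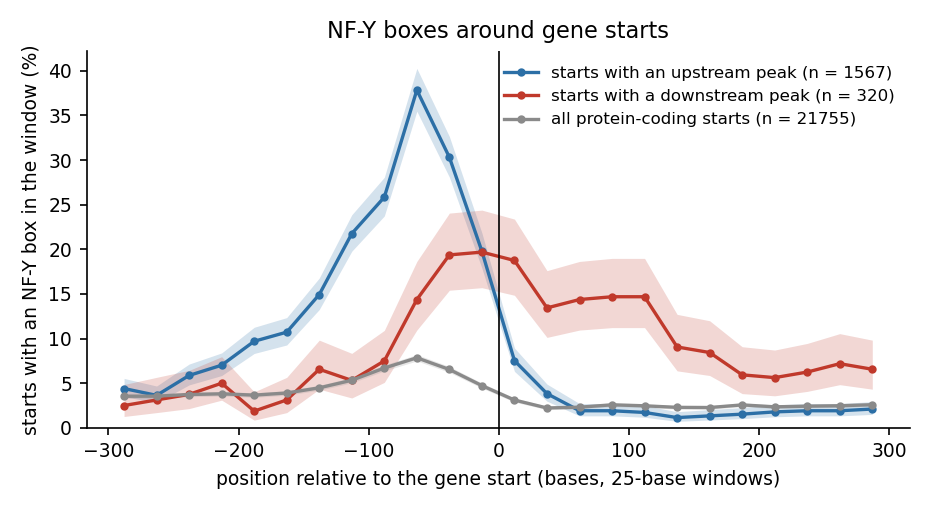
Share of gene starts, in percent, with a CCAAT box in 25-base windows around the start, with 95% Wilson intervals as shading. Starts with an upstream peak (blue, n = 1567) are highest in the 100 bases before the start, starts with a downstream peak (red, n = 320) stay raised from shortly before the start into the gene, and all protein-coding starts (grey, n = 21755) have a low maximum before the start.

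A gene start in an annotation is the first base of its outermost transcript, and cells may use another. For 308 of the downstream peaks the gene had a curated RefSeq mRNA, and the first of these began further downstream than the assigned start in 183 (59.4%, 53.8 to 64.8) and by over 20 bases in 156 (50.6%, 45.1 to 56.2). At upstream peaks these shares were 41.7% (39.2 to 44.2) and 24.2% (22.1 to 26.5) of 1491, with no overlap of the intervals. The median shift was 21.5 bases at downstream and 0 bases at upstream peaks. Measured from the first RefSeq mRNA start, 137 of the 308 downstream peaks (44.5%, 39.0 to 50.1) were centred upstream of it, and the nearest box was upstream of it in 166 of 261 peaks (63.6%, 57.6 to 69.2) at a median position of -24 bases. Which start the MuSCs used was not measured in these libraries.

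Genes on the opposite strand started near many of the downstream peaks. Such a start lay within 1000 bases of the assigned start in 102 of 320 cases (31.9%, 27 to 37.2) and in 27.5% (25.4 to 29.8) at upstream peaks, with overlapping intervals. It was upstream, and hence divergent, in 67 cases (20.9%, 16.8 to 25.7) and downstream in 35 (10.9%, 7.97 to 14.8). Counting only protein-coding genes the shares were 21.9% (17.7 to 26.7) and 14.2% (12.5 to 16), and these intervals did not overlap. Examples with strong peaks were Fbxo24 and Lrch4, with 119 bases between their starts, and Cdca2 and Kctd9, with 96 bases. The peak centre of such pairs lies downstream of 1 start and may be upstream of the other, and the signal of both genes cannot be told apart.

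Inactivation of Taf4a was compared with control at all peaks that had a mean of at least 10 normalised reads, using limma on log2(value + 1) with Benjamini-Hochberg adjustment over the 4746 tested peaks. Of the 320 downstream peaks 289 were tested. At the adjusted threshold of 0.05 only the peak of Fbxo24 differed, which was lower in Taf4asKO, and 0 were higher. The count depended on the scaling, with 7 lower peaks when libraries were set to equal medians and 2 at equal totals. Thus 1 of 289 peaks (0.346%) was called, beside 45 of all tested peaks (0.948%) in either direction and 29 (0.611%) in the lower direction. Without adjustment 41 of the 289 (14.2%) had a p under 0.05, 31 lower and 10 higher, beside 17.9% of all tested peaks.

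Fbxo24 encodes an F-box protein, a substrate adaptor of SCF ubiquitin ligases. Its peak at chr5:137628589-137629193 (GRCm38) had 903 and 1070 normalised reads in the control and 610 and 679 in the Taf4asKO libraries. The Taf4asKO values were both below the control values, with a log2 ratio of -0.61 ± 0.12 (SE, n = 2 per group; limma adjusted p = 0.0473). The call was lost without any 1 of the 4 libraries and when weak peaks were not removed, with adjusted p between 0.0189 and 0.739 over all alternatives. The log2 ratio stayed at -0.61 when weak peaks were kept and lay between -0.73 and -0.49 without 1 library, where a lone library was assumed to vary like the pair of the other genotype. The peak held 7 boxes, all read on the strand of Fbxo24, and the first curated RefSeq mRNA of the gene began 3924 bases further downstream. Since this is the called peak, its boxes are shown in order from upstream to downstream, with positions counted from the gene start as 0.
79 bases upstream, chr5:137629066-137629095: gaactccgcggaCCAATcatgaaccagaga
47 bases upstream, chr5:137629034-137629063: cgttagaagtgcCCAATcagaaaacggcag
78 bases downstream, chr5:137628909-137628938: gcgcagcgacatCCAATcacaactctcgag
109 bases downstream, chr5:137628878-137628907: ctggagatggagCCAATgagacccgcccag
next box downstream, chr5:137628786-137628815: tttcaaccaagaCCAATtgcaatctagatt
242 bases downstream, chr5:137628745-137628774: ctgtgaagaagaCCAATtagaacctacaaa
303 bases downstream, chr5:137628684-137628713: cggttctgcctaCCAATagcatgggctagg
The boxes at 79 and 47 bases upstream lie between the starts of Fbxo24 and Lrch4.

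The other peaks with the highest control signal were also lower in both Taf4asKO libraries, but missed the threshold in this fit. They were picked by control signal, which favours lower Taf4asKO values, and among all tested peaks with a mean of at least 100 a share of 84.7% had a log2 ratio below 0. With equal medians Cic, Gsk3b and Cdca2 passed it, at limma adjusted p of 0.0294, 0.0141 and 0.0392, and with equal totals Gsk3b did, at 0.0303. At Cic, which encodes the transcriptional repressor capicua and had the strongest and widest of the downstream peaks, 1372 and 1321 normalised reads in the control stood against 985 and 1114 (log2 ratio -0.36 ± 0.10, adjusted p = 0.110 in limma). At Gsk3b, which encodes a kinase of the Wnt and insulin pathways, 911 and 874 stood against 634 and 652 (-0.47 ± 0.10, adjusted p = 0.0677 in limma). At Cdca2, whose product recruits protein phosphatase PP1 to chromatin in mitosis, the values were 808 and 890 against 577 and 664 (-0.45 ± 0.11, adjusted p = 0.0979 in limma). Ensa, which encodes the PP2A inhibitor endosulfine alpha, had 675 and 649 against 503 and 568 (-0.31 ± 0.11, adjusted p = 0.193 in limma). Swsap1, a gene of homologous recombination, was picked for the width of its 878-base peak and not by control signal. It had 457 and 421 against 335 and 349 (-0.36 ± 0.12, adjusted p = 0.166 in limma).

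Over all 289 tested peaks the median log2 ratio of Taf4asKO over control was -0.09, with 168 below 0 and 121 above. It was -0.06 over upstream peaks and -0.04 over all tested peaks. The sign of the median depended on the scaling: with the libraries set to equal totals it was 0.06, and that of all peaks 0.10. Relative to the library median of all tested peaks, the median of the downstream peaks was 0.98 and 1.02 log2 units in the control and 0.82 and 1.02 in the Taf4asKO libraries, a difference of -0.08 between the group means of 1.00 and 0.92 (exact two-sided permutation p = 0.667, smallest possible p 0.333). The groups overlapped in this measure.

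Ratios differed by the strength of the peak. The 99 downstream peaks with a mean of at least 100 had a median of -0.20 and 82 of them (82.8%) were below 0, and the 85 peaks from 50 to 100 had a median of -0.04. The 67 peaks from 20 to 50 had a median of 0.10 and the 38 peaks from 10 to 20 of 0.16. All tested peaks in the same classes had medians of -0.22, -0.06, 0.07 and 0.16, so that the downstream peaks took the course of the whole set. Control libraries were the shallower in reads: 1 read was worth about 1.04 and 3.26 normalised reads there and less than 1 in the Taf4asKO libraries, and the part of depth in these ratios was not tested. Values of 0 occurred at 1 and 6 downstream peaks in the control and at 0 and 0 in the Taf4asKO libraries.

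**Figure D5:**
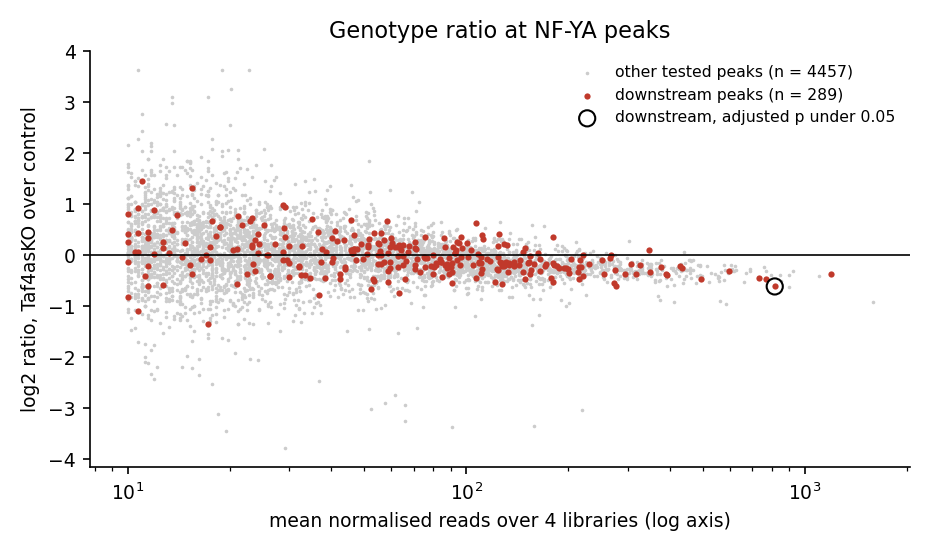
Log2 ratio of Taf4asKO over control for each tested peak against its mean normalised reads over the 4 libraries on a log axis, with the 289 downstream peaks in red and the other tested peaks in grey. The circled peak is Fbxo24 with a log2 ratio of -0.61, and red and grey points both move from above to below 0 with rising signal.

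In 119 of the tested downstream peaks the 2 control values did not overlap with the 2 Taf4asKO values, and 83 of these (28.7% of 289) were lower and 36 (12.5%) higher in Taf4asKO. Among all tested peaks 28.6% were lower and 19.3% higher in this sense. The share of lower peaks was therefore that of the whole set.

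The largest decreases among these non-overlapping peaks were at weak or moderate peaks, and none passed the adjusted threshold. The minimum was a mean of 10 over all 4 libraries, and 15 tested downstream peaks had a mean below 10 in the control (9 peaks) or in Taf4asKO (6 peaks) and so passed it only through the group in which they were higher. Their ratios are a description and support no difference. Plpp7, Hist2h2aa1 and Fanca are among the 6. Plpp7, a gene of the phospholipid phosphatase family, had 24 and 26 normalised reads in the control and 7 and 12 in the Taf4asKO libraries (-1.35 ± 0.39, limma adjusted p = 0.130). Cavin1, which encodes a coat protein of caveolae, had 91 and 68 against 46 and 48 (-0.73 ± 0.22, limma adjusted p = 0.140). Rad51ap1, a gene of homologous recombination, had 47 and 46 against 23 and 31 (-0.78 ± 0.26, limma adjusted p = 0.166). Hist2h2aa1 and Fanca are given with their groups.

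The largest increases among the non-overlapping peaks were at weak peaks and did not pass the threshold either. Pygo2, Abca6 and Dhdds are among the 9 that passed the minimum only through the Taf4asKO libraries. Pygo2, a Wnt pathway gene for a PHD finger protein, had 4 and 7 normalised reads in the control and 15 and 18 in the Taf4asKO libraries (1.46 ± 0.49, limma adjusted p = 0.171), and no box in its 122-base peak. Abca6, a gene for an ABC transporter, had 10 and 7 against 25 and 20 (1.32 ± 0.39, limma adjusted p = 0.140). Sesn3, which encodes the stress-induced sestrin 3, had 28 and 13 against 43 and 33 (0.94 ± 0.37, limma adjusted p = 0.225), and the ratio was 1.47 without control library 1 and 0.42 without control library 2. Sugt1 had 10 and 10 against 18 and 18, and Dhdds, the gene for an enzyme of dolichol synthesis, 7 and 7 against 13 and 13. A log2 ratio of 1 or more in either direction was fitted for 4 of the 289 peaks, Plpp7, Hist2h2aa1, Pygo2 and Abca6, all of which had passed the minimum through 1 group.

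Peaks were also grouped by gene lists, and 45 downstream peaks belonged to at least 1 list. The lists do not hold every gene of a class. Genes were matched by symbol, so a gene listed only under an earlier symbol is missing from the counts below. In each of the 14 lists 0 peaks were called in either direction in this fit, beside 0.948% of all tested peaks. With equal medians Gins2, Kdm4a and Prmt5 were called lower, at limma adjusted p of 0.0386, 0.0325 and 0.0299, and at a threshold of 0.1 Gins2 and Prmt5 passed.

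Among 66 listed genes for the cell cycle and mitosis 3 had a downstream peak and 27 an upstream peak. Bub3, a spindle checkpoint gene, had 56 and 42 normalised reads in the control and 42 and 49 in the Taf4asKO libraries, and Cenpa, which encodes the histone H3 variant of centromeres, 57 and 39 against 42 and 67. Both groups overlapped. Ccna2, the gene for cyclin A2, had 31 and 20 against 17 and 16, with both Taf4asKO values lower (log2 ratio -0.57 ± 0.34, limma adjusted p = 0.389). The ratio was -0.26 without control library 1 and -0.87 without control library 2.

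In DNA replication and repair 6 of 59 listed genes had a downstream peak and 13 an upstream peak. Of the 6, 4 had a log2 ratio below 0 and 2 above, with a median of -0.15, beside 53.8% of all tested peaks below 0. The strongest was Gins2, a subunit of the replicative helicase, with 315 and 333 normalised reads in the control and 210 and 234 in the Taf4asKO libraries (-0.54 ± 0.13, limma adjusted p = 0.0967). Orc6, of the origin recognition complex, had 151 and 144 against 107 and 150, and Orc2 had 81 and 55 against 73 and 74, both with overlapping groups. Fanca, of the Fanconi anaemia core complex, was weak, with 13 and 13 against 8 and 6. The clamp gene Pcna also had such a peak. Pclaf, which encodes a PCNA-associated factor and is in no list, had 122 and 95 against 71 and 76 at a peak centred 1 base from the start.

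Of 142 listed histone gene symbols, 2 matched a gene with a downstream peak and 30 a gene with an upstream peak. H3c2 had 61 and 62 normalised reads in the control and 44 and 45 in the Taf4asKO libraries (-0.46 ± 0.21, limma adjusted p = 0.281). Hist2h2aa1 (ENSMUSG00000064220) had 14 and 16 against 6 and 7 (-1.09 ± 0.46, limma adjusted p = 0.248). The linker histone gene H1-2 was not counted, since the list holds it only under earlier symbols. It was named after its values were seen and had 18 and 13 against 9 and 11 (-0.57 ± 0.42, limma adjusted p = 0.480). The groups did not overlap at the 2 matched genes and at H1-2, as at the 28.6% of all tested peaks that were lower in this sense. H1-2 is given as a description only. Histone genes have near-identical copies, and per the study's methods reads that map to more than 1 place were removed. The part of this filter in the values of such peaks was not tested.

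At 63 listed genes for chaperones and stress of the endoplasmic reticulum there were 5 downstream and 24 upstream peaks. P4hb, which encodes protein disulfide isomerase, had 473 and 447 normalised reads in the control and 378 and 419 in the Taf4asKO libraries, both lower (-0.21 ± 0.12, limma adjusted p = 0.373), and the ratio was -0.13 without Taf4asKO library 1. Hspa8, the gene for the constitutive HSC70 chaperone, had 222 and 225 against 191 and 231. Xbp1 and Dnajb9, genes of the unfolded protein response, had 52 and 39 against 49 and 44 and 24 and 36 against 25 and 30 at peaks centred 198 and 189 bases downstream. Except for P4hb these groups overlapped.

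At 38 listed genes for sterol and fatty acid synthesis there were 3 downstream and 19 upstream peaks. Mvk, which encodes mevalonate kinase, had 373 and 342 normalised reads in the control and 258 and 295 in the Taf4asKO libraries (-0.37 ± 0.13, limma adjusted p = 0.188), and Mmab started 209 bases upstream on the other strand. Msmo1, for a sterol demethylase, had 140 and 130 against 111 and 113 (-0.27 ± 0.16, limma adjusted p = 0.397). Both peaks were lower in both Taf4asKO libraries, as were 28.6% of all tested peaks, and both belong to the class above a mean of 100 in which 84.7% of all peaks were below 0.

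At 103 listed genes for chromatin modifiers there were 3 downstream and 14 upstream peaks. Kdm4a, a demethylase of lysine 9 of histone H3, had 573 and 567 normalised reads in the control and 384 and 445 in the Taf4asKO libraries (-0.46 ± 0.12, limma adjusted p = 0.107). Prmt5, an arginine methyltransferase, had 318 and 352 against 217 and 222 (-0.61 ± 0.13, limma adjusted p = 0.0714). Both were lower in both Taf4asKO libraries, beside the same 28.6% of all tested peaks and 84.7% below 0 among the strong peaks. Kansl2, a subunit of the NSL acetyltransferase complex and a gene at the centre of the study, had a weak downstream peak of 84 bases, centred 167.5 bases from the start, with 9 and 20 against 9 and 8 and no box. Its groups overlapped, it passed the minimum only through the control libraries, and its log2 ratio of -0.61 was -1.15 without control library 1 and -0.08 without control library 2. Nfyb, the gene for the NF-YB subunit, had a stronger peak with 116 and 117 against 102 and 107 (-0.16 ± 0.16, limma adjusted p = 0.638) and 3 boxes.

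Downstream peaks were found at 3 of 76 listed genes for general transcription and Mediator, at 2 of 87 for RNA processing and at 3 of 109 for the ribosome and translation. In general transcription these were Med21 (109 and 114 against 101 and 118), Taf15 (39 and 49 against 41 and 54) and the TFIID subunit gene Taf8 (26 and 52 against 25 and 31). All 3 overlapped between the genotypes, and the peak of Taf8 held no box. The spliceosomal gene Snrpa had 221 and 280 normalised reads in the control and 158 and 205 in the Taf4asKO libraries (-0.46 ± 0.18, limma adjusted p = 0.214), with a ratio of -0.29 without control library 2 and -0.28 without Taf4asKO library 1, while the cold-inducible RNA-binding gene Rbm3 had 8 and 10 against 12 and 10. The initiation factor gene Eif5 had 75 and 72 against 71 and 69, and the ribosomal protein genes Rps9 and Rpsa had 75 and 52 against 58 and 86 and 24 and 10 against 13 and 14.

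Among mitochondrial genes 3 of 172 listed symbols matched a gene with a downstream peak. Atp5pd, listed under its earlier symbol Atp5h and so not counted, had 125 and 111 normalised reads in the control and 108 and 116 in the Taf4asKO libraries, with overlap. Mrpl18, which encodes a mitochondrial ribosomal protein, had 48 and 42 normalised reads in the control and 70 and 74 in the Taf4asKO libraries, both higher (0.67 ± 0.21, limma adjusted p = 0.148). Mrpl32 had 51 and 65 against 47 and 56 and Mrps15 had 15 and 10 against 10 and 11, both with overlap.

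At 79 listed proteasome and ubiquitin genes there were 5 downstream and 6 upstream peaks. The proteasome subunit genes Psma3 and Psma5 had 91 and 104 normalised reads in the control and 73 and 93 in the Taf4asKO libraries and 61 and 59 against 59 and 81. The polyubiquitin gene Ubb had 86 and 68 against 65 and 83. The genotypes overlapped at these 3, and Cul5 was below the minimum for testing.

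At 66 listed genes for autophagy and the lysosome there were 4 downstream and 7 upstream peaks, and 3 of the 4 log2 ratios were above 0, with a median of 0.36. Among all tested peaks 53.8% were below 0 and the median was -0.04. Wipi1, which acts in autophagosome formation, had 165 and 150 normalised reads in the control and 190 and 217 in the Taf4asKO libraries (0.37 ± 0.15, limma adjusted p = 0.243), both higher. Npc2, for a lysosomal cholesterol carrier, had 113 and 59 against 111 and 146 (0.63 ± 0.28, limma adjusted p = 0.278), with overlap, and the ratio was 1.10 without control library 1 and 0.17 without control library 2. Tfe3, which encodes a transcription factor of lysosomal genes, had 10 and 10 against 14 and 12, and Gla, which encodes alpha-galactosidase, 84 and 101 against 74 and 87.

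At listed genes of MuSCs and myogenesis 2 of 53 had a downstream peak and 7 an upstream peak. Six4, a homeobox gene of muscle development, had 21 and 29 normalised reads in the control and 23 and 21 in the Taf4asKO libraries. The peak at Pax3 was too weak to test, with 1 and 7 against 4 and 4. The Pax7 gene that marks these cells had no downstream peak, which says nothing of its expression.

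Peaks centred within 2 bases of the start numbered 18. The strongest by control signal were Coq10b (160 to 238 over the 4 libraries), Pclaf, Smyd4 (94 and 108 against 67 and 95), Avpi1 (92 and 72 against 87 and 96) and Rpl36a (ENSMUSG00000049751, named Rpl36al in GENCODE M21, 69 and 68 against 37 and 61). Their nearest boxes lay close to the start as well, at 15, 22, -10, 3 and -6 bases in the same order. At Pclaf and Rpl36a both Taf4asKO values were lower, with log2 ratios of -0.55 ± 0.19 and -0.52 ± 0.26 (limma adjusted p = 0.186 and 0.317), and at the others the genotypes overlapped. The ratio of Rpl36a was -0.16 without Taf4asKO library 1 and -0.87 without Taf4asKO library 2.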

How the data were processed

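The deposited values are a score, the reads of each merged peak in each NF-YA library after the authors had normalised them with DESeq2 and rounded them to whole numbers. Per the study's methods and the submitters' processing notes, reads were trimmed with Trimmomatic 0.39, aligned to mm10 with STAR, freed of duplicates with Picard and used for peak calling with MACS against IgG, and peaks of all libraries were merged and assigned to the nearest gene start. For the authors' alignment and normalisation the notes name STAR 2.7.11a, Picard 3.1.1 and DESeq2 1.36.0, while the study's methods give other versions of these tools. Columns of other samples numbered 0. Gaps between the values of a library show what 1 read was worth, which puts control libraries 1 and 2 at 351696 and 111269 reads within peaks. A read was worth less than the rounding unit in the Taf4asKO libraries, so that no count model was used.

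The genotype test was limma (version 3.58.1, under R 4.3.3) applied to log2(value + 1), with a trended variance, over all 4746 peaks that reached a mean of 10. A test on the log scale was chosen because the values were normalised, and it was tested on simulated data. Log2 ratios understate the change of weak peaks. Shares have 95% Wilson intervals, which cover counting of peaks only, and comparisons over libraries used exact permutation tests in Python 3.11.15. All 320 gene IDs were found in GENCODE M21, 318 with identical coordinates. Sequences are from the RefSeq copy of GRCm38. Transcript starts were also taken from curated RefSeq mRNAs.

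The members, gene lists and tests were chosen with earlier results of these data known. Named peaks are all those called, the 5 with the highest control mean, the 5 largest increases and decreases without overlap, up to 4 per gene list by control mean, the study's own genes, the 3 widest, and up to 5 centred within 2 bases of the start. Some peaks that this rule names are not reported here. Further peaks named for the limits of the rule and for missing boxes were chosen after their values were seen. The replicate numbers did not pair the libraries by the check on their deviations (r = -0.088 over tested peaks). Alternatives covered the scaling, the minimum, the pseudocount, a replicate block, the search window and leaving out each library.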

Additional observations from a re-analysis of the deposited data

How the results depend on the processing

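The count of called downstream peaks was 1 with a pseudocount of 5 and with a replicate block, as in the reported fit. It was 7 with equal medians, 2 with equal totals, 5 at a threshold of 0.1 and 0 without a minimum, all in the lower direction, and 0 to 0 when 1 library was left out. Without a minimum and without any 1 library no peak of the whole set was called by limma, where 10 to 43 downstream peaks had an unadjusted p under 0.05. The replicate numbers give no established pairing of libraries, and the fit with the replicate block called 31 peaks in all against 45. The median log2 ratio of the downstream peaks turned to 0.06 with equal totals and ranged from -0.19 to 0.00 without 1 library. The level against upstream peaks was 0.05 with a minimum mean of 10 and -0.18 per 100 bases of width, and ranged from -0.06 to -0.02 without 1 library.

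The share of downstream peaks with a CCAAT box was 63.4% in the central 100 bases, 90.0% in 300 bases and 88.1% in the whole peak. Measured from the annotated transcript start nearest to the box, 50.2% of boxes were upstream and the median position was -1.0 bases. That start could belong to any gene on the same strand. Choosing it by its closeness to the box draws the position towards the start by construction. Opposite-strand starts fell to 21.9% with protein-coding genes only. The cause of these shifts was not tested beyond the construction of each alternative. Besides Fbxo24, the peaks of Cic, Gsk3b, Cdca2, Gins2, Kdm4a and Prmt5 passed the threshold with equal medians, and Gsk3b with equal totals. The low depth of control library 2, at 3.26 normalised reads per read, limits what can be said of weak peaks.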
